A study of Mus musculus with 6 samples.

Results

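The insulin-like growth factor (IGF) genes described here are the ligands Igf1 and Igf2, the receptors Igf1r and Igf2r, and the binding proteins Igfbp2, Igfbp3, Igfbp4, Igfbp5, Igfbp6 and Igfbp7. Their members were the probe sets to which the platform annotation gave exactly 1 gene symbol, equal to 1 of these 10 names, which came to 28 of 45037 probe sets and 10 of 18193 genes. Messenger RNA was measured on 6 Affymetrix Mouse430_2 arrays in primary dermal fibroblasts of strain B6, grown out of the skin of newborn pups of both sexes. The 3 Et1 cultures received 100 nM synthetic endothelin 1 (Et1), a peptide that acts on G-protein-coupled receptors, for 24 hours, and the 3 control cultures received nothing. The sample labels give an age of 0 to 2 days and passage 6, while the design text gives up to 3 days and passage 5; all cultures were kept in medium with fetal bovine serum, and the animals behind each culture are not named.

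Igf1 and Igf2 are secreted peptides that drive growth through the tyrosine kinase receptor Igf1r. Igf2r, which also sorts lysosomal enzymes by their mannose 6-phosphate tags, takes up Igf2 and sends it for breakdown. The binding proteins hold the ligands in the extracellular fluid and on the matrix, and proteases that cut them set the ligands free; skin fibroblasts are known to secrete several of them.

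The values are MAS5 signals on a linear scale, scaled to a common 2% trimmed mean of 139, since the deposited trimmed means ran from 91.7 to 179. They have no unit of molecules, so levels were compared between arrays and not between probe sets, and 3 arrays per group limit the precision. Tests covered probe sets whose mean over the 6 arrays was at least 41.0, the median of all. That left 22 of the 28 IGF probe sets, at least 1 for each of the 10 genes, and 6 below it. Of the 12 fibroblast markers, among them Col1a1, Col1a2, Vim and Twist2, 11 lay above that level and Lum below it. Their summed signal was 16460 to 28267 in Et1 and 23617 to 37502 in control arrays. Markers of other skin cell types were partly above the filter: 4 of 6 of keratinocytes (highest signal 213, Epcam), 4 of 5 of macrophages and leukocytes (178, Csf1r), 2 of 5 of endothelial cells (83.9, Kdr), 3 of 5 of melanocytes (67.8, Pmel) and 1 of 4 of skeletal muscle (81.4, Des). Of adipocytes it was 1 of 3 (329, Fabp4), while Adipoq read at most 23.0 on any array. The 4 markers of pericytes and smooth muscle (700, Mcam) and the 2 of Schwann cells (124, Sox10) all lay above the filter. The arrays also split on the mean log2 signal of 27 Bacillus spike-in control probe sets into a low set of 3 (Et1 replicate 2, control replicates 1 and 2, at 3.45 to 3.57) and a high set of 3 (Et1 replicates 1 and 3, control replicate 3, at 4.75 to 5.64).

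**Figure D1:**
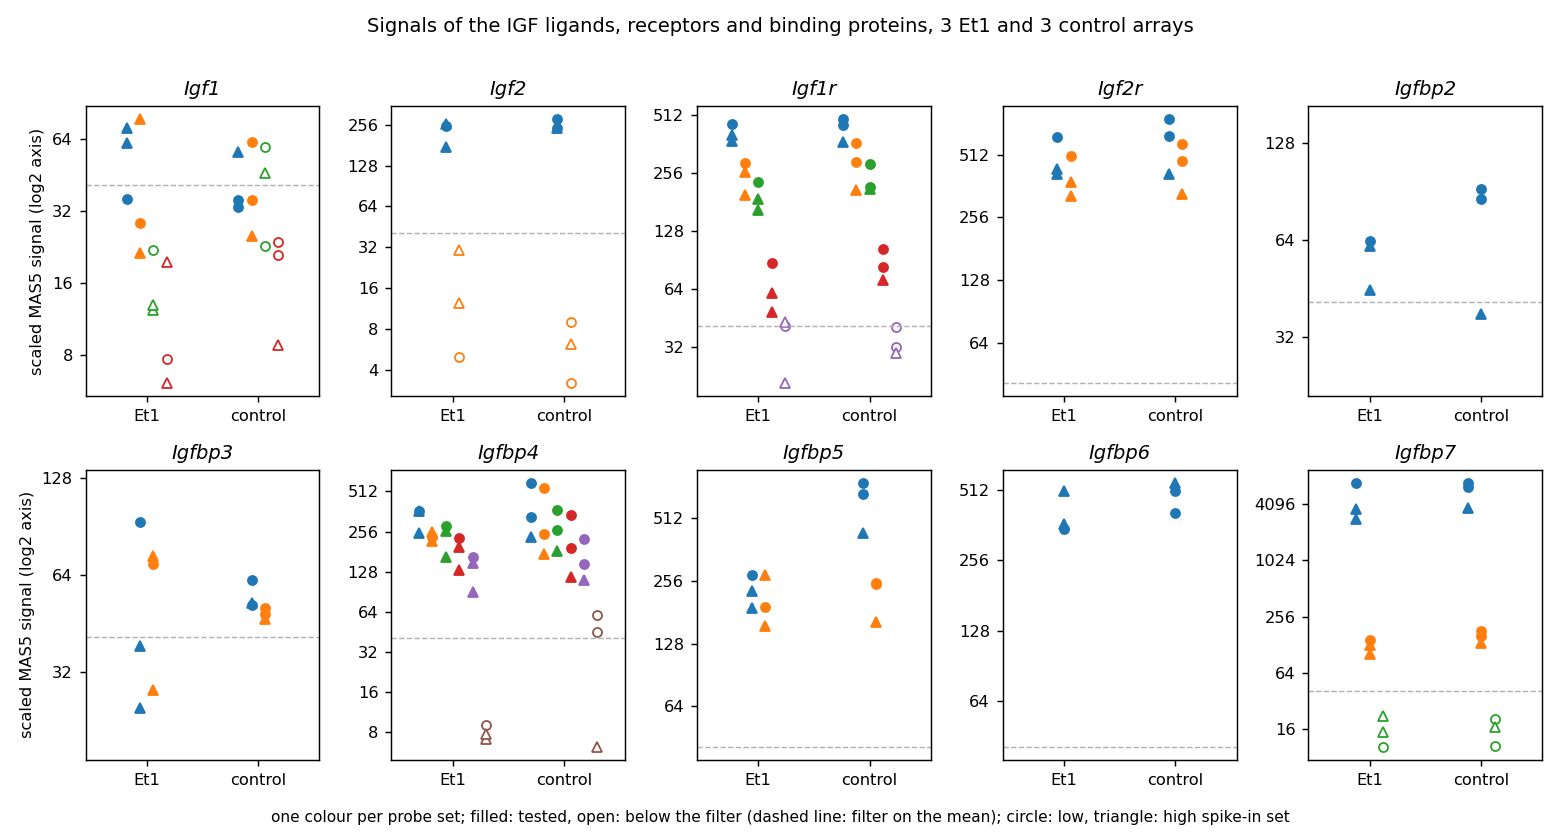
Scaled MAS5 signal (log2 axis) of every IGF probe set, 1 panel per gene, with the 3 Et1 arrays on the left and the 3 control arrays on the right of each panel; a colour stands for a probe set, open symbols for probe sets below the filter of 41.0 (dashed line), circles for the low and triangles for the high spike-in set. Among the 22 tested probe sets the groups are apart in 1 of Igfbp5 only, at 189 to 273 in Et1 against 436 to 758 in control arrays.

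In cultures given Et1 no IGF probe set differed from controls past the threshold, and the one with the widest difference was of Igfbp5. Of the 22 tested probe sets 0 passed an adjusted p of 0.05 in limma, where 0.346% of all 22519 tested probe sets passed. At an unadjusted p under 0.05 there was 1 of 22 (4.55%), against 12.3% of all. A difference of 1.5-fold or more was seen in 1 of the 22 (4.55%), against 11.9% of all tested. The median size of the log2 fold change, whatever its sign, was 0.25 for the 22 and 0.22 over all tested. The 95% confidence interval lay within 2-fold either way for 13 of the 22. The difference of each tested probe set is drawn in the plot of log2 fold changes with their intervals.

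**Figure D2:**
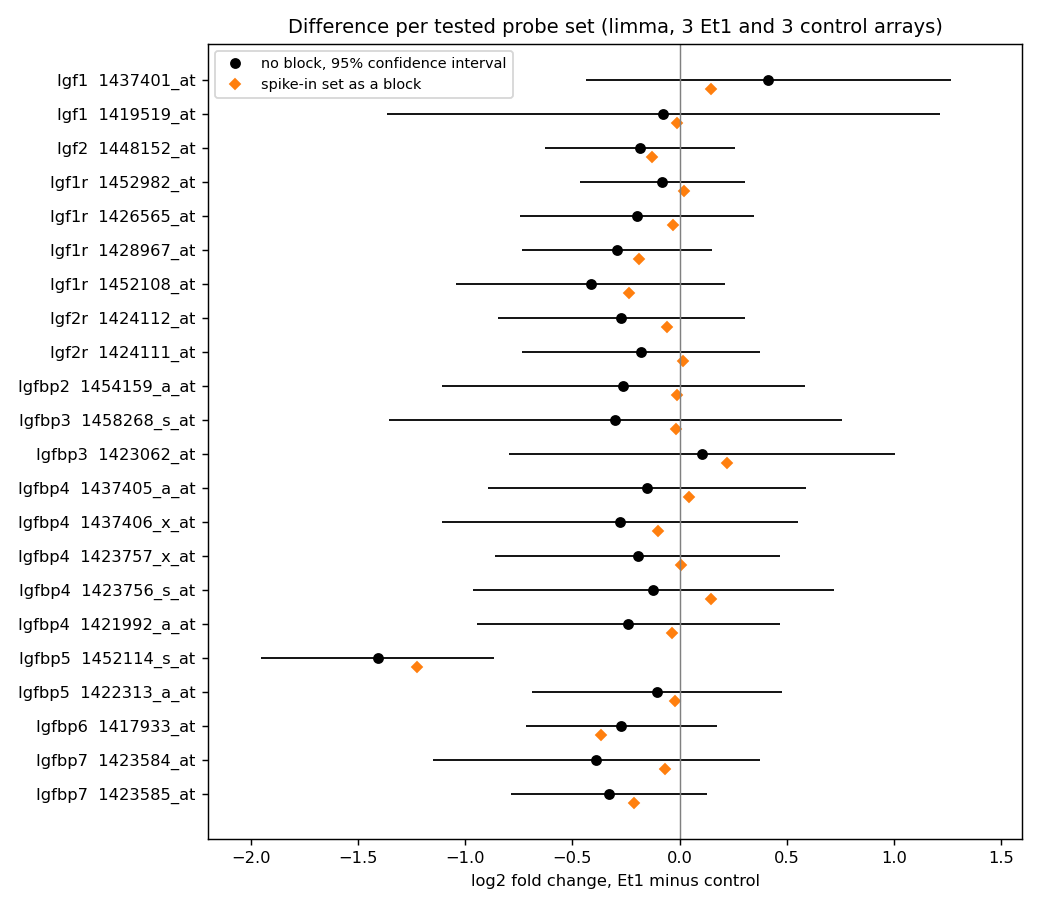
Log2 fold change, Et1 minus control, of the 22 tested IGF probe sets (black points, with 95% confidence intervals as lines, limma, n = 3 arrays per group) and the same blocked on the spike-in set (orange diamonds). Every interval but that of Igfbp5 1452114_s_at, -1.95 to -0.87, spans 0.

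Most of the small differences lay on the same side. The mean log2 signal was lower in Et1 arrays for 20 of the 22, against 45.9% of all tested probe sets, with a median of -0.22 against 0.03 over all. Probe sets of the same gene are not independent. The spike-in sets moved with this: high minus low, 20 of the 22 were lower, with a median of -0.53, and 4 passed an adjusted p of 0.05, a share of 18.2% against 16.7% of all. When limma carried the spike-in set as a blocking factor, the median of the 22 for Et1 minus control was -0.03, with 15 lower. Over all 28 probe sets the median was -0.22, and -0.06 without control replicate 1. The part of the spike-in set in these differences was not tested further.

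Igfbp5, a binding protein that attaches to extracellular matrix, was read by 2 probe sets. Probe set 1452114_s_at read 189, 273 and 230 in Et1 replicates 1 to 3, against 758, 672 and 436 in control replicates 1 to 3. Every Et1 array lay below every control array, as in 8.11% of all tested probe sets; the groups were apart in either direction in 17.6%. The means were 231 ± 41.6 in Et1 and 622 ± 167 in control arrays (SD, n = 3), a log2 fold change of -1.41 (SE 0.24, 95% confidence interval -1.95 to -0.87), or 2.66-fold lower. It missed the threshold over all probe sets at limma adjusted p = 0.0609. With the replicate number as a block it passed (limma adjusted p = 0.0172), where 2.52% of all tested probe sets passed. In bulk RNA, fewer cells that express a gene and less RNA per cell cannot be told apart.

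The second Igfbp5 probe set, 1422313_a_at, did not show this. It read 273, 192 and 156 in Et1 arrays, against 248, 251 and 164 in control arrays, and the groups overlapped. Its log2 fold change was -0.11 (SE 0.26, limma adjusted p = 0.894), with an interval of -0.69 to 0.48. Within each array, 1452114_s_at minus 1422313_a_at on the log2 scale averaged 0.18 ± 0.61 in Et1 and 1.48 ± 0.11 in control arrays (SD, n = 3). The difference between these means of -1.30 had an exact permutation p = 0.1, two-sided, the smallest that 3 against 3 arrays allow. Affymetrix gives the suffix _s_at to probe sets whose probes may match more than 1 transcript; the annotation names only Igfbp5 for this one. The mean of both probe sets differed by -0.76 on the log2 scale (limma adjusted p = 0.149 over 11666 genes).

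Every Et1 array of 1452114_s_at lay below every control array, so its log2 difference had to be negative within either spike-in set. It was -1.39 among the low-set arrays (1 Et1 and 2 control) and -1.06 among those of the high set (2 Et1 and 1 control). Blocked on the set it was -1.23 (limma adjusted p = 0.00239), where 3.85% of all tested probe sets passed. The probe set was itself lower in the high than in the low spike-in set, by a log2 value of -0.55 (limma adjusted p = 0.0211). Its log2 fold change without any single array stayed between -1.65 and -1.25. Its adjusted p was 0.017 without control replicate 3 and between 0.0526 and 0.291 without any other single array. Beside it, the summed signal of the 3 adipocyte markers was 132 to 137 in Et1 and 275 to 376 in control arrays, carried by Fabp4, the 1 of them that fell. The summed signal of the 2 Schwann markers was 109 to 131 in Et1 and 175 to 191 in control arrays. Neither Sox10 nor S100b passed (limma adjusted p = 0.468 and 0.346). The summed signal of the 4 pericyte and smooth muscle markers overlapped, at 405 to 682 in Et1 and 554 to 1106 in control arrays. Mcam carried most of it (means of 239 and 551), Rgs5 stood at 0.07, and 0 of the 4 passed. Of the 12 fibroblast markers, each in its brightest probe set, Prrx1 alone passed the threshold, at -0.92 (limma adjusted p = 0.0307). Col3a1 (-1.26), Thy1 (-1.18) and Pdgfrb (-1.14, limma adjusted p = 0.0615) differed by more without passing. Only Vim, at 0.02, did not have a lower mean in Et1 arrays. The part of these markers in the result was not tested.

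**Figure D3:**
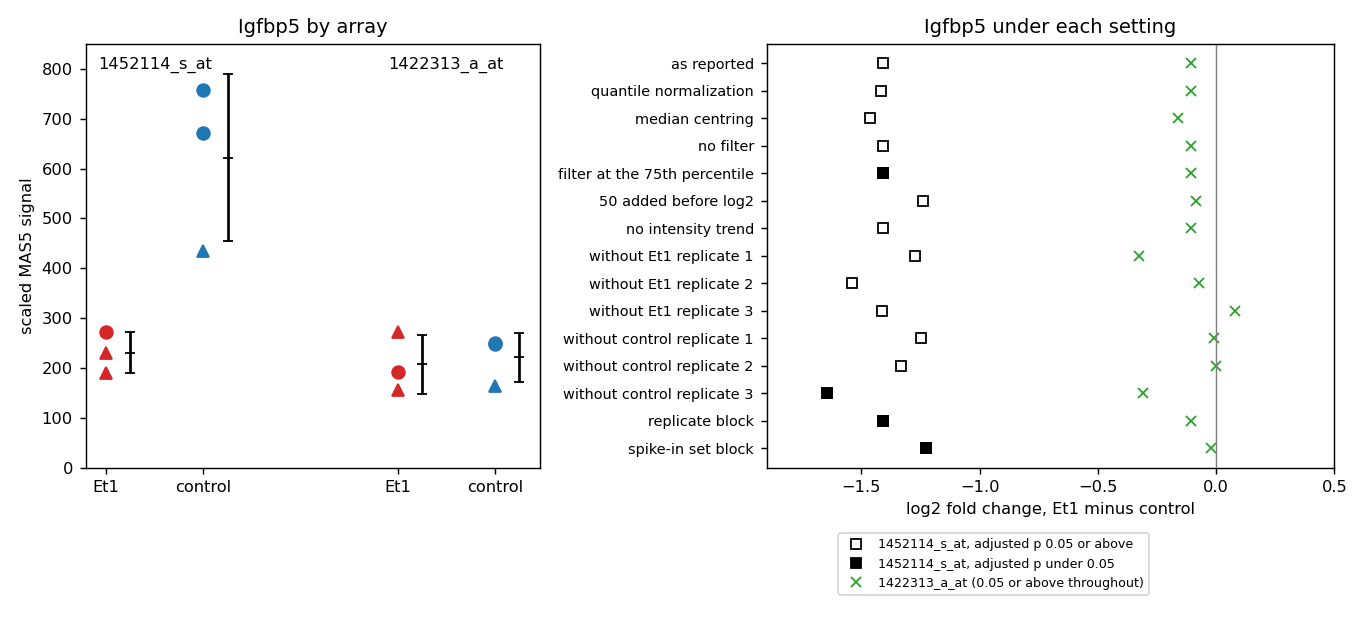
Left, scaled MAS5 signal of both Igfbp5 probe sets by array, Et1 (red) before control (blue), with mean and SD as bars (n = 3 arrays) and circles and triangles for the low and high spike-in set. Right, log2 fold change, Et1 minus control, of each probe set under every setting, with squares filled where limma's adjusted p was under 0.05: 1452114_s_at lies between -1.65 and -1.23 throughout, and 1422313_a_at between -0.33 and 0.08.

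The promoters of Igfbp5 and Igfbp4 are shown because Igfbp5 was the binding protein with a probe set below all controls and Igfbp4, read by the most probe sets, was not. They are the 250 bases before the RefSeq start on GRCm38.p6, on the strand of the gene: chr1:72874866-72875115, minus strand, for Igfbp5 and chr11:99040994-99041243, plus strand, for Igfbp4. Capitals mark TATAAA (Igfbp4) and TATNNAA (Igfbp5), searched on the gene's strand.
Igfbp5: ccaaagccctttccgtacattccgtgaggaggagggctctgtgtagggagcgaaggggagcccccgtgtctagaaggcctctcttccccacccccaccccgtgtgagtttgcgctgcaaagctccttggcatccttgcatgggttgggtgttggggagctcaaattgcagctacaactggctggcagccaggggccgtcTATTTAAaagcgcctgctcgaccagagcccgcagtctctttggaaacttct
Igfbp4: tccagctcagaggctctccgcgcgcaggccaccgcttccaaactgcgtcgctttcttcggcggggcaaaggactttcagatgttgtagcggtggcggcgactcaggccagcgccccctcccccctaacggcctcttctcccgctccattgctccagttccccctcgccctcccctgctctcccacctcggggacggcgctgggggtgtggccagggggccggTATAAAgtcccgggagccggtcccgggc
TATAAA stood with its first base 28 bases before the start in Igfbp4, and 7.59% of 32851 mouse promoters of this length hold it. Igfbp5 held none, and a match to the looser TATNNAA, chosen after the sequence was seen, began 51 bases before its start; 18.1% of promoters hold that. On both strands, neither window held the CCAAT box (CCAAT, in 33.8% of promoters) or the GC box (GGGCGG, in 32.7%). The same was true of the AP-1 motif (TGANTCA, in 6.75%) and the forkhead motif (GTAAACA, in 3.17%). Of the 14 windows that RefSeq gave for the 10 genes, only that of Igfbp4 held TATAAA and only that of Igfbp5 held TATNNAA. Igfbp5 lies next to Igfbp2 on chromosome 1, and Igfbp3 next to Igfbp1 on chromosome 11, with no other coding gene between them in the RefSeq table.

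Igfbp2, the neighbour of Igfbp5, had 1 probe set, which read 44.8, 63.4 and 61.3 in Et1 arrays, against 92.6, 86.0 and 37.8 in control arrays. Control replicate 3 lay below every Et1 array and the other controls above them. The log2 fold change was -0.26 (SE 0.37, limma adjusted p = 0.808).

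Igfbp4, which holds IGFs away from their receptor, had 6 probe sets, 5 of them tested. The brightest, 1437405_a_at, read 364, 365 and 249 in Et1 arrays, against 592, 330 and 233 in control arrays. Control replicate 1 stood above all other arrays in each of the 5. Their log2 fold changes lay between -0.28 and -0.12, with adjusted p from 0.79 to 0.921. Without control replicate 1 all 5 were above 0, at 0.03 to 0.27. Without Et1 replicate 3, 4 of the 5 were above 0, at 0.023 to 0.10, and when blocked on the spike-in set 3 were, so the probe sets had no stable direction. The sixth probe set, 1421991_a_at, lay below the filter and read 7.10, 9.12 and 7.81 in Et1 arrays, against 61.0, 45.4 and 6.25 in control arrays, with control replicate 3 beside the Et1 arrays.

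Igfbp7, a secreted protein with low affinity for IGFs that is found on the matrix around vessels, read 3676, 6825 and 2846 in Et1 arrays, against 6257, 6919.9 and 3696 in control arrays in its brightest probe set, 1423584_at. The high and low signals followed the spike-in set and not the group: the 3 arrays of the high set lay below the 3 of the low set. Its log2 difference between the sets, high minus low, was -0.95 (limma adjusted p = 0.00161). Et1 minus control was -0.39 (SE 0.34, adjusted p = 0.677), and -0.07 when blocked on the set. The second tested probe set, 1423585_at, stood at -0.33 (SE 0.20, adjusted p = 0.554), and at -0.21 in either spike-in set alone. The third, 1437804_at, lay below the filter at 10.4 to 22.2.

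Igfbp6, which prefers Igf2 over Igf1, was measured by 1 probe set, with 503, 348 and 367 in Et1 arrays, against 507, 408 and 546 in control arrays. The groups overlapped through Et1 replicate 1. Its log2 fold change was -0.27 (SE 0.20, limma adjusted p = 0.611), with -0.39 among low-set and -0.35 among high-set arrays. It was the 1 tested binding protein probe set with a higher level in the high than in the low set, by 0.29 (adjusted p = 0.231).

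Igfbp3, the main carrier of IGFs in blood, was near the filter in both of its probe sets. Probe set 1423062_at read 28.1, 69.3 and 73.4 in Et1 arrays, against 48.4, 50.7 and 46.7 in control arrays. The Et1 arrays spread on both sides of the controls, and the other probe set did likewise at 24.8, 93.6 and 38.4 in Et1 and 51.5, 61.7 and 52.2 in control arrays. The log2 fold changes of 0.11 and -0.30 had SEs of 0.40 and 0.46, so that a 1.5-fold difference in either direction lies inside both intervals.

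**Figure D4:**
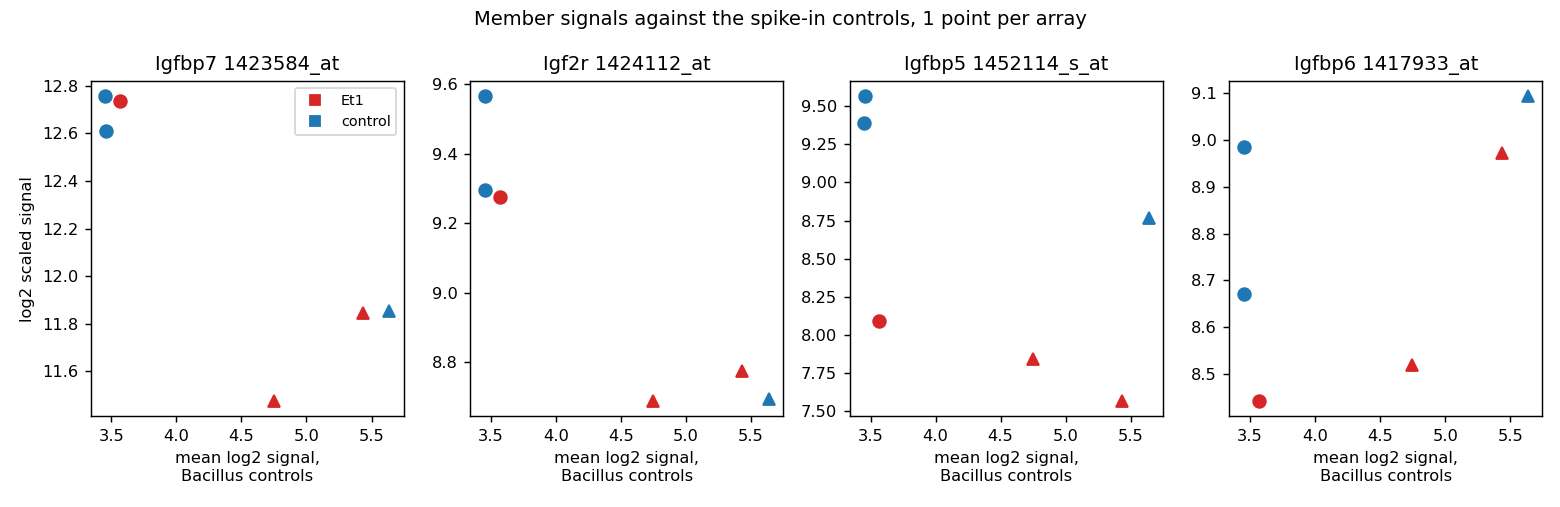
Log2 scaled signal of 4 IGF probe sets against the mean log2 signal of the 27 Bacillus spike-in control probe sets, 1 point per array, Et1 in red and control in blue, circles for the low and triangles for the high spike-in set. Igfbp7 and Igf2r are lower on all 3 high-set arrays than on all 3 low-set arrays. Igfbp5 1452114_s_at is lower on all 3 Et1 than on all 3 control arrays, and Igfbp6 overlaps.

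Neither ligand had a probe set past the threshold, and 3 of their 6 probe sets lay below the filter. Igf2, the imprinted fetal growth factor, read 261, 251 and 175 in Et1 arrays, against 244, 282 and 243 in control arrays, in probe set 1448152_at. Only Et1 replicate 3 lay below the controls. The log2 fold change was -0.18 (SE 0.19, limma adjusted p = 0.739), with an interval of -0.63 to 0.26, and the other Igf2 probe set lay below the filter at 3.18 to 30.6.

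Igf1, the growth factor that acts in postnatal growth, had 2 probe sets just above the filter and 2 below it. Probe set 1437401_at read 71.0, 35.7 and 61.3 in Et1 arrays, against 33.1, 35.4 and 56.2 in control arrays (log2 fold change 0.41, SE 0.37, limma adjusted p = 0.696). The other tested one, 1419519_at, stood at -0.08 (SE 0.57, adjusted p = 0.971). Below the filter, 1452014_a_at read 12.4, 21.9 and 13.0 in Et1 arrays, against 59.1, 22.9 and 46.1 in control arrays, and 1434413_at at most 23.7 on any array. The 4 probe sets of Igf1 thus gave no common direction, and in 1452014_a_at the groups were apart only by the gap between 21.9 and 22.9.

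Igf1r, the signalling receptor, was read by 5 probe sets, of which 4 were tested. The brightest, 1452982_at, read 375, 463 and 404 in Et1 arrays, against 458, 489 and 370.4 in control arrays, and the groups overlapped. Its log2 fold change of -0.08 had an interval of -0.46 to 0.30, which excludes a 1.5-fold difference for this probe set only (limma adjusted p = 0.88). The other 3 tested probe sets stood at -0.20, -0.29 and -0.41, with the smallest adjusted p at 0.587. Their intervals of -0.74 to 0.35, -0.74 to 0.15 and -1.04 to 0.21 each include a 1.5-fold fall. The fifth, 1446303_at, lay below the filter at 20.8 to 43.0.

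Igf2r read 438, 620 and 412 in Et1 arrays, against 758, 628 and 414 in control arrays, in probe set 1424112_at. As for Igfbp7, the 3 arrays of the high spike-in set, Et1 replicates 1 and 3 and control replicate 3, lay below the others. High minus low was -0.64 on the log2 scale (limma adjusted p = 0.00585) in this probe set and -0.59 (adjusted p = 0.0116) in 1424111_at. For Et1 minus control the 2 stood at -0.27 and -0.18 (adjusted p = 0.703 and 0.8), and at -0.06 and 0.017 when blocked on the set. Whether these differences between the sets come from the cultures or from the arrays was not tested.

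The wider pathway was described from a list of 58 other genes. Of these, 53 had a probe set with 1 symbol and 47 a tested one, 98 probe sets in all; the listed genes without such a probe set were not analysed here. Of the 98, 1 fell (against 0.249% of all tested probe sets) and 0 rose (0.0977% of all). At an unadjusted p under 0.05 limma gave 21, or 21.4%, against 12.3% of all. Since the list was chosen with earlier results of these data known, this share is not a test of it. The median log2 fold change was -0.08.

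The 1 that fell without a block was Peg3, a paternally expressed imprinted gene like Igf2 that encodes a zinc finger protein. Probe set 1433924_at read 151, 140 and 150.4 in Et1 arrays, against 416, 297 and 331 in control arrays. The 3 Et1 values lay close together and below every control. The log2 fold change was -1.23 (SE 0.17, limma adjusted p = 0.0357), and -1.23 when blocked on the spike-in set as well. The 2 other tested probe sets stood at -0.97 and -1.03 (adjusted p = 0.0776 and 0.12), also without overlap of the groups; blocked on the spike-in set, limma's adjusted p was 0.0161 and 0.0505. In the list of Igf2 mRNA binding and imprinted genes, 16 of 17 tested probe sets had lower means in Et1, against 45.9% of all tested. Their median was -0.38, against 0.03 over all. Most of the 17 were of Igf2bp3, Igf2bp1 and Peg3 and so not independent, and Mest counted as lower at -0.0021. Without each of 5 arrays in turn, all but control replicate 3, no probe set of the whole pathway list passed. Plagl1, a zinc finger regulator of imprinted genes, stood at 0.49 in 1426208_x_at (limma adjusted p = 0.201, and 0.0133 when blocked on the spike-in set) and at -0.24 in its other tested probe set, and Igf2bp3, which binds Igf2 mRNA, at -0.38 (adjusted p = 0.346).

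Among the proteases that cut binding proteins and the inhibitors of those proteases, 0 of 12 tested probe sets passed in limma. At an unadjusted p under 0.05 there were 8 (66.7%, against 12.3% of all tested), all of Pappa, Htra1, Adam12 and Stc2. Probe sets of the same gene are not independent. The list was chosen with earlier results of these data known, so the share is not a test of it. The 12 probe sets did not share a direction: 6 had lower means in Et1. Stc2, a stanniocalcin that inhibits the protease Pappa, read 142, 151 and 126 in Et1 arrays, against 74.6, 72.9 and 43.7 in control arrays in 1449484_at. Its Et1 values lay above every control (log2 fold change 1.17, SE 0.25, limma adjusted p = 0.105). Pappa, which cuts Igfbp4 and Igfbp5, read 225, 197 and 213 in Et1 arrays, against 385, 277 and 287 in control arrays in 1432591_at, all below the controls (log2 fold change -0.57, SE 0.18, adjusted p = 0.25). Adam12, a metalloprotease known to cut Igfbp3 and Igfbp5, read 518, 466 and 421 in Et1 arrays, against 916, 822 and 771 in control arrays in 1421172_at (log2 fold change -0.84, SE 0.15, adjusted p = 0.0694). Htra1, another protease of the list, was instead higher in Et1, at 0.94 in 1438251_x_at and 0.42 in 1416749_at (limma adjusted p = 0.264 and 0.33). Blocking on the spike-in set, where 3.85% of all tested probe sets passed, gave limma adjusted p-values of 0.00943 for Stc2, 0.00733 for Adam12 and 0.0872 for Pappa. For the Htra1 probe sets it gave 0.0252 and 0.166.

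**Figure D5:**
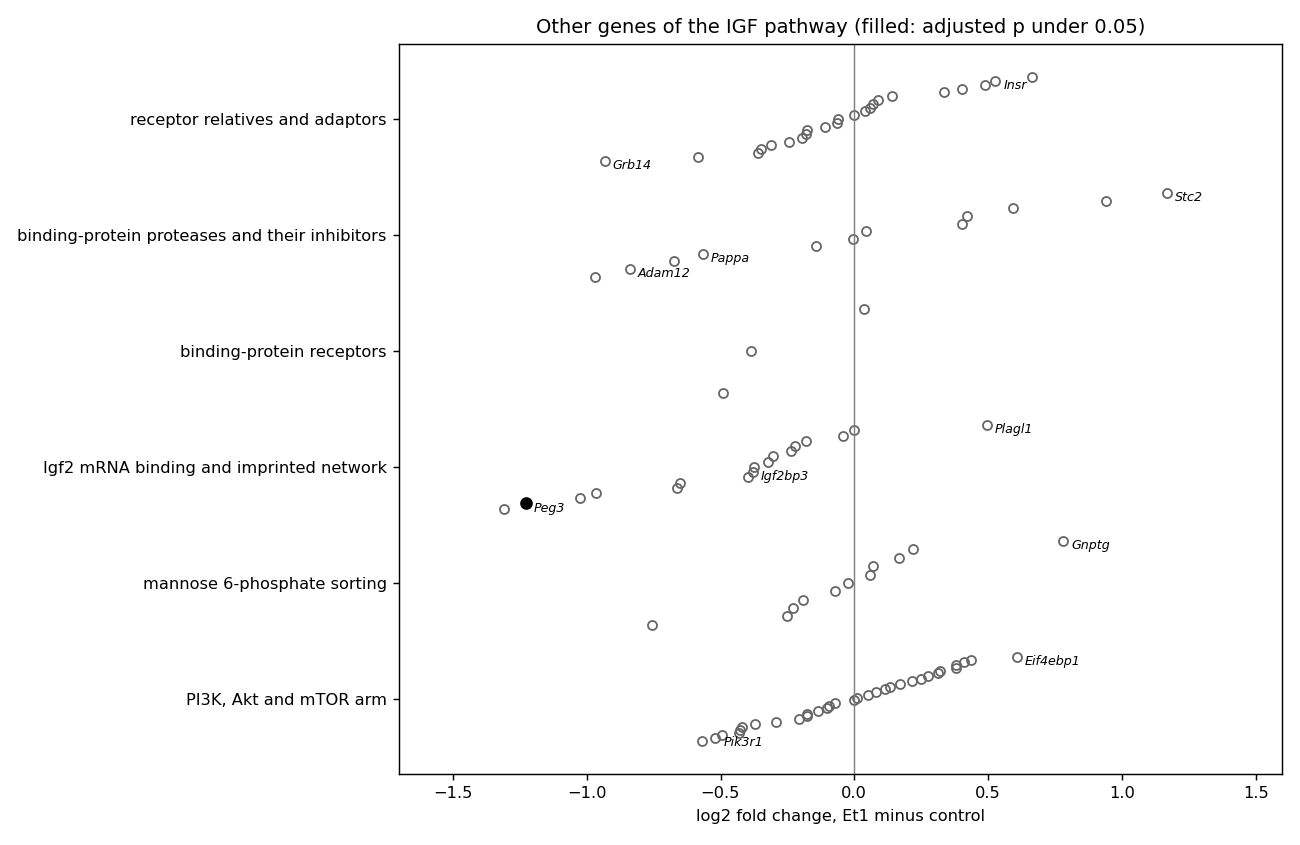
Log2 fold change, Et1 minus control, of the 98 tested probe sets of other IGF pathway genes, 1 row per role, with the points of a row spread vertically by rank; the filled point is Peg3, the 1 probe set past limma's adjusted p of 0.05. The row of proteases and their inhibitors reaches from -0.97 to 1.17. Names stand beside the probe set with the smallest p of at most 3 genes per role, where its unadjusted p was under 0.05.

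In the remaining roles no probe set passed in limma without a block, and the shares at an unadjusted p under 0.05 were below or close to the 12.3% of all tested. Among receptor relatives and adaptors it was 2 of 23 (8.7%). Grb14, an adaptor that inhibits the insulin receptor, read 379, 461 and 556 in Et1 arrays, against 769, 881 and 1002 in control arrays, with no overlap (log2 fold change -0.93, SE 0.18, limma adjusted p = 0.0886). Blocked on the spike-in set it stood at -0.98 (limma adjusted p = 0.0104). Insr, the insulin receptor, stood at 0.53 in 1434446_at and at -0.31 in its other tested probe set, and Socs2, a feedback inhibitor of growth hormone signalling, at 0.40. In the arm of PI3K, Akt and mTOR it was 4 of 32 (12.5%), among them Eif4ebp1, a translation repressor under mTOR, at 0.61 (limma adjusted p = 0.127, and 0.0341 when blocked on the spike-in set), and Pik3r1, the regulatory subunit of PI3K, at -0.52. Akt2, a kinase of the same arm, had -0.50 (limma adjusted p = 0.514) and -0.10 in its 2 tested probe sets. In the mannose 6-phosphate route that Igf2r serves, it was 1 of 11 (9.09%), namely Gnptg, a subunit of the enzyme that makes the tag, at 0.78; Gnptab, its catalytic subunit, stood at -0.25 and M6pr, the smaller receptor, at -0.19. Lrp1, a receptor for Igfbp3, had -0.49 (adjusted p = 0.516) and Tmem219, another, 0.04. The carriers Igfbp1, Igfals and Igfbpl1 lay below the filter, with at most 36.4 on any array.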

How the data were processed

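RNA of 3 Et1 and 3 control cultures was hybridised to Affymetrix Mouse430_2 arrays. The authors deposited a linear intensity per probe set, and the submitters' processing notes name MAS5; its version and target level are unknown here. Experiment files with array settings were not used.

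Arrays were scaled to the geometric mean of their 2% trimmed means, 139. The 4 zeros were replaced by the lowest signal above 0 on the same array, and log2 was taken without a pseudocount. Of 45101 probe sets 64 Affymetrix controls were left out, and 22519 of 45037 with a mean of at least 41.0 were tested with limma 3.58.1 in R 4.3.3 (lmFit and eBayes, trend on, unblocked); p-values were Benjamini-Hochberg adjusted over all 22519, with a threshold of 0.05. The fit was tested on simulated data. Arrays carry no count of molecules; the spread between 3 arrays per group sets the precision, and the labels do not say which animals the cultures came from.

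Genes were named from probe sets with 1 symbol. All member probe sets were described. Of the pathway list, the named genes were those past the threshold, at most 3 per role by smallest p, and Htra1. Members and lists were chosen with earlier results of these data known. Promoters came from RefSeq (GRCm38.p6), with all 10 genes matched. Other settings were quantile normalization, median centring, no filter or one at the 75th percentile, 50 added before log2, no trend, each array left out, the replicate number or the spike-in set as a block, the mean of probe sets per gene, and no _x_at or _s_at probe sets. The spike-in sets were split at the largest gap between arrays.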

Additional observations from a re-analysis of the deposited data

How the results depend on the processing

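The count of 0 IGF probe sets past the threshold became 1, each time Igfbp5 1452114_s_at, with the filter at the 75th percentile (adjusted p = 0.0431), without control replicate 3 (0.017), with the replicate block (0.0172, where 2.52% of all tested passed) and with the spike-in set block (0.00239). It was 0 under the other settings, and 0 to 1 without single arrays. The setting without _x_at or _s_at probe sets leaves out 1452114_s_at itself, so its 0 cannot bear on that probe set. The adjusted p of this probe set ranged from 0.00239 to 0.291 over 14 alternatives, with no change of sign. The median over the 28 IGF probe sets was between -0.43 and -0.06 without single arrays and -0.03 with the spike-in set block. The pathway count of 1 was 0 with no filter and with no intensity trend, 2 with the filter at the 75th percentile, and 0 to 3 without single arrays. It was 7 of 98 with the replicate block, where 2.52% of all tested passed. With the spike-in set block it was 9 of 98, where 3.85% of all tested passed. Of 300 recomputed log2 fold changes of the 22 tested IGF probe sets, 22 turned sign, none of them past the threshold. With the spike-in set block these were Igf1r 1452982_at at 0.021, Igf2r 1424111_at at 0.017, and Igfbp4 at 0.046 (1437405_a_at), 0.0061 (1423757_x_at) and 0.15 (1423756_s_at). The others came without single arrays, where the ranges were -0.62 to 0.30 for Igf1 1419519_at, -0.20 to 0.0021 for Igf1r 1452982_at, -0.14 to 0.55 and -0.83 to 0.13 for Igfbp3 1423062_at and 1458268_s_at, -0.33 to 0.078 for Igfbp5 1422313_a_at, and for Igfbp4 -0.46 to 0.21 (1437405_a_at), -0.63 to 0.19 (1437406_x_at), -0.45 to 0.056 (1423757_x_at), -0.49 to 0.27 (1423756_s_at) and -0.47 to 0.032 (1421992_a_at). The cause of these changes was not tested. The design text says that cultures were split into treated and control, but no label says that equal replicate numbers share a culture. The replicate numbers were therefore not taken as pairs, and the replicate block was kept as an alternative. Deviations of same-numbered arrays from their group means correlated at -0.12, 0.44 and 0.45 over tested probe sets. Et1 replicate 1 correlated best with control replicate 3 (0.26), an array of its own spike-in set, whereas control replicate 1 is of the other. These correlations therefore cannot decide whether the cultures were paired. Of the 22 intervals only that of Igf1r 1452982_at, -0.46 to 0.30, did not reach past 1.5-fold in at least 1 direction. This held near the filter, as for Igf1 and Igfbp3, and in bright probe sets such as Igfbp7 1423584_at (-1.15 to 0.38). Differences of that size could thus be missed with 3 arrays per group.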
